A study of Mus musculus with 10 samples.

Results

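A set of 10 genes of iron and heme handling were followed in mouse liver: Hamp, Hamp2, Bmp6, Tfr2, Trf, Tfrc, Scara5, Fth1, Slc40a1 and Alas1. They were taken from a list by symbol, each through the transcript cluster (the probe set for 1 transcript region) that carried that symbol alone and had the highest mean level. Of these 10 genes, out of 22180 in all, 9 had such a cluster, 1 each. Trf, the plasma iron carrier transferrin, had only a cluster annotated to a second gene as well and is not analysed here. All 9 lay above the level filter (log2 3.98) and entered the tests.

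The livers came from 4-week-old male mice whose dams ate chow with doxycycline at 625 mg/kg, with the knockdown set at embryonic days 0 to 12.5. In 3 livers the genotype was Rosa26-rtTA with SOD2 shRNA 1 and in 3 it was Rosa26-rtTA with SOD2 shRNA 2, short hairpin RNAs against the mitochondrial superoxide dismutase that rtTA switches on when doxycycline is present; these 6 are called adapted livers, after the term in the series title. The other 4 livers were from littermates with Rosa26-rtTA alone, under the same labelled feeding protocol. Each liver gave 1 array, and levels are log2 values as deposited. The labels assign 3 controls to the cohort of shRNA 2 and 1 to that of shRNA 1 without saying which, so hairpin and cohort cannot be told apart. The labels do not state that the samples of a group are separate animals, so the p-values reflect only how far these samples scatter, which may be technical.

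The liver governs iron supply for the whole body. Hepatocytes secrete hepcidin, the product of Hamp, which binds the iron exporter ferroportin (Slc40a1) and has it degraded, so that less iron leaves macrophages and gut cells. Hamp transcription is driven by BMP6 from sinusoidal endothelium acting through SMAD proteins, and by interleukin-6 acting through STAT3. Iron enters hepatocytes on transferrin or as ferritin, is stored in ferritin, and is spent in part on heme, whose synthesis starts with ALAS1. Superoxide dismutases bear on this system because superoxide releases iron from iron-sulfur clusters.

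The sequences just upstream of the hepcidin genes are shown because Hamp and Hamp2 were read side by side on these arrays and the STAT and BMP response motifs of Hamp lie there. Each is the 250 bases before the start site, from RefSeq on GRCm38.p6, minus strand, 5′ to 3′. Hamp covers chr7:30944030-30944279 and Hamp2 covers chr7:30924182-30924431. Capitals mark matches to GGCGCC, the core of a BMP response element, and to TTCNNNGAA, the STAT consensus.
Hamp: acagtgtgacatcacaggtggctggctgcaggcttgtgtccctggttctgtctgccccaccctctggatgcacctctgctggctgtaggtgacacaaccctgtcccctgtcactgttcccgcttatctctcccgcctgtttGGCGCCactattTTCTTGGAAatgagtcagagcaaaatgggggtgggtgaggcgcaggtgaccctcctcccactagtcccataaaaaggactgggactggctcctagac
Hamp2: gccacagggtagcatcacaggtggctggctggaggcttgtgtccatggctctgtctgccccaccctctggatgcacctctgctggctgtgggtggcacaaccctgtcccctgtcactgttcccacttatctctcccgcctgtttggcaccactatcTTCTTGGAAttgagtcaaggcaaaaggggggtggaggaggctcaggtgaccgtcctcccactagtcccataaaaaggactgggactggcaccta
The aligned windows were identical at 227 of 247 bases (91.9%). Hamp held GGCGCC starting at -109 relative to the start site and TTCNNNGAA starting at -97. Hamp2 kept the STAT letters, starting at -94, but had the substitution G4A in the aligned GGCGCC, counted from 1 at the 5′ end of that motif. Both motifs read the same on either strand and do not overlap here. Among 32851 RefSeq windows of the same length, 9.59% held GGCGCC and 7.02% held TTCNNNGAA. A match of letters describes the sequence and does not show that a factor bound it in these livers.

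None of the 9 genes passed an adjusted p of 0.05 in limma in any of the comparisons: adapted against control, each hairpin line against control, and shRNA 1 against shRNA 2. That is read against a background in which almost no gene passed: the share of 13308 genes called was 0.00751% for adapted, 0.0% for shRNA 1 and 0.00751% for shRNA 2 livers against control, and 0.015% for shRNA 1 against shRNA 2. At an unadjusted p under 0.05 in limma 1 of the 9, the ferritin receptor Scara5, was lower in adapted livers, where 8.37% of all genes had such a p (4.86% higher and 3.51% lower). Scara5 was also the 1 of 9 in shRNA 1 livers, where 7.89% of genes had such a p (4.57% higher, 3.32% lower), and in shRNA 2 livers, where 7.6% did (4.14% higher, 3.46% lower). Between the lines 2 of 9 had one, Scara5 lower and Tfrc higher in shRNA 1 than in shRNA 2 livers, against 6.02% of genes (3.32% higher, 2.7% lower). In adapted against control 0 of the 9 had groups that did not overlap, against 1.88% of genes. The median difference of the 9 was 0.02 on the log2 scale, and 0.01 over all genes tested. Sod2 itself stood at log2 10.39 ± 0.06 in shRNA 1, 10.35 ± 0.12 in shRNA 2 (SD, n = 3 each) and 10.38 ± 0.08 in control livers (SD, n = 4), at an age past the embryonic knockdown window.

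**Figure D1:**
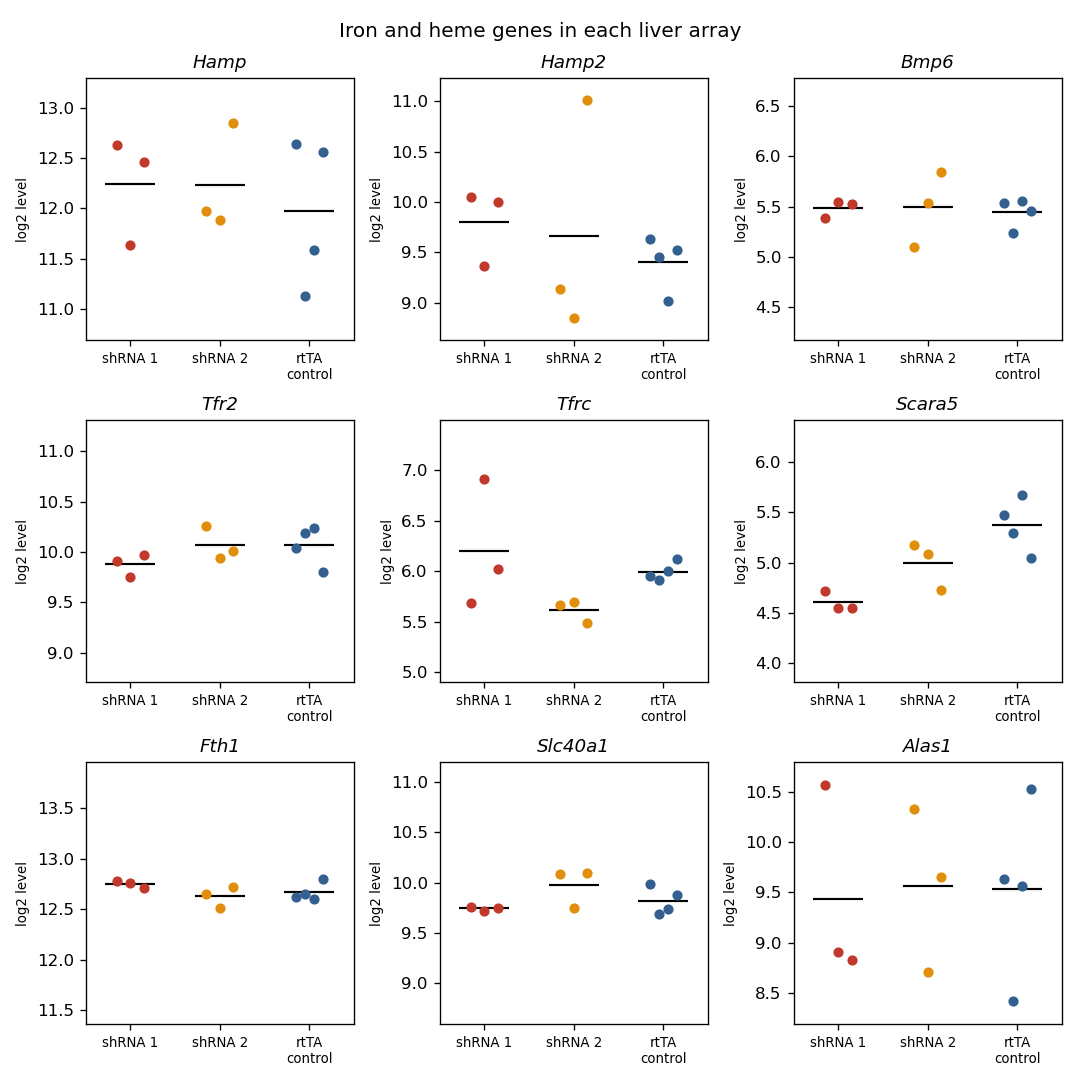
Log2 level of the 9 measured genes in each of 10 arrays (points), with the group mean as a bar, for shRNA 1 (n = 3), shRNA 2 (n = 3) and rtTA control livers (n = 4). All panels span the same height in log2 units; Scara5 in shRNA 1 livers and Tfrc in shRNA 2 livers lay below every control, and Hamp, Hamp2 and Alas1 spread widely within groups.

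The hepcidin genes come first as the hormone arm. Hamp was at 12.63, 11.63 and 12.46 in shRNA 1 livers and at 11.97, 11.88 and 12.85 in shRNA 2 livers, against 12.64, 11.13, 11.58 and 12.56 in controls. The groups overlapped, and controls held both the lowest value of all and values close to the highest. The adapted mean differed from control by 0.26 (standard error 0.32, 95% interval -0.44 to 0.96, adjusted p = 0.873 in limma, exact two-sided permutation p = 0.495). The difference was 0.26 for shRNA 1 and 0.25 for shRNA 2 against the same 4 controls, and 0.01 between the lines. Without control replicate 2, the lowest liver, adapted minus control was -0.02.

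Hamp2 encodes a hepcidin-like peptide that mice have beside the iron-regulating hormone. It was at 10.05, 9.37 and 10.002 in shRNA 1 livers and at 9.14, 8.85 and 11.01 in shRNA 2 livers, against 9.63, 9.46, 9.02 and 9.53 in controls. Replicate 3 of shRNA 2 was the highest liver for Hamp2 and for Hamp, while replicate 2 of the same line was the lowest for Hamp2. For adapted against control livers the difference was 0.33 (standard error 0.35, 95% interval -0.43 to 1.08, adjusted p = 0.849 in limma), and it was -0.01 without shRNA 2 replicate 3. By line it was 0.40 in shRNA 1 and 0.26 in shRNA 2 livers, and shRNA 1 minus shRNA 2 was 0.14.

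Across the 10 arrays Hamp and Hamp2 tended to be high in the same livers, with Pearson's r of 0.68 (permutation p = 0.0247) and Spearman's rho of 0.76 (permutation p = 0.0148). This was 1 of 8 relations computed, and neither passed after Benjamini-Hochberg adjustment (permutation adjusted p = 0.197 for r and 0.118 for rho). Without the 2 arrays farthest from the Hamp median r was 0.78 (exact permutation p = 0.0331, adjusted p = 0.264). On deviations from the group means it was 0.66 (permutation p = 0.0278, adjusted p = 0.222). That last permutation makes no allowance for the group means taken out first. The transcripts are near copies, and how far each cluster also reads the other was not tested. The other relations with Hamp had permutation adjusted p of 0.648 or more for r: Bmp6 at r = 0.45 and rho = 0.19, the BMP target Id1 at r = 0.06 and rho = 0.14, the BMP-induced inhibitor Smad7 at r = 0.23 and rho = -0.05, Tfrc at r = -0.36 and rho = -0.35, and Scara5 at r = -0.36 and rho = -0.28. For Bmp6 and Smad7, r became -0.06 and -0.42 without the 2 arrays farthest from the Hamp median. Over the same 10 arrays the genes whose levels were most like those of Hamp, by Pearson's r among all genes tested, were Mir181c (0.95), Rpl7a (0.93) and Actn1 (0.92), which is a description of the highest of many values.

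**Figure D2:**
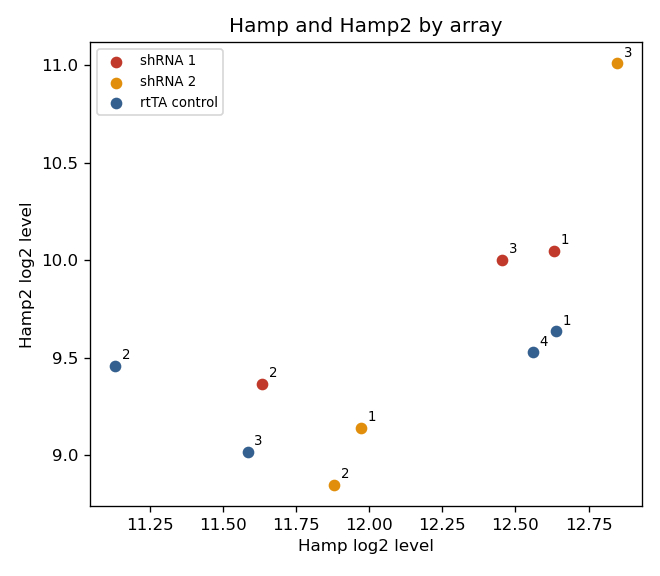
Log2 level of Hamp (horizontal) against Hamp2 (vertical) in 10 arrays, coloured by group and numbered by replicate. The points run from lower left to upper right (Pearson's r = 0.68), with shRNA 2 replicate 3 at the top of both axes and all 3 groups mixed along the line.

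For the inducer and the sensor of the hepcidin pathway, the 95% intervals of adapted minus control included 0. Bmp6, the endothelial signal for hepcidin, was at 5.39, 5.54 and 5.53 in shRNA 1 livers and at 5.10, 5.53 and 5.84 in shRNA 2 livers, against 5.54, 5.24, 5.56 and 5.46 in controls. The shRNA 2 line held both the lowest and the highest value. This gave a difference of 0.04 between adapted and control means (standard error 0.13, 95% interval -0.24 to 0.32, adjusted p = 0.963 in limma). By line Bmp6 was at 0.04 in both shRNA 1 and shRNA 2 livers, and shRNA 1 minus shRNA 2 was -0.0057. Tfr2, which senses transferrin-bound iron at the hepatocyte surface, was at 9.91, 9.76 and 9.97 in shRNA 1 livers and at 10.26, 9.94 and 10.01 in shRNA 2 livers, against 10.04, 10.18, 10.24 and 9.80 in controls. The adapted value less the control value was -0.09 (standard error 0.10, 95% interval -0.32 to 0.13, adjusted p = 0.859 in limma), and the groups overlapped. By line Tfr2 was at -0.19 in shRNA 1 livers (adjusted p = 0.765) and at 0.0012 in shRNA 2 livers (adjusted p = 1.000), and shRNA 1 minus shRNA 2 was -0.19 (adjusted p = 0.911).

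Of 18 further genes of BMP and SMAD control of hepcidin, 17 were tested and 0 passed. At an unadjusted p under 0.05 in limma 1 was higher and 1 lower, against 4.86% and 3.51% of all genes tested. The median difference was 0.05. Atoh8, a transcription factor that responds to BMP signals, was at 0.29 (adjusted p = 0.542 in limma). Erfe, the erythroid hormone that lowers hepcidin, was at -0.22 (adjusted p = 0.520), and Smad7 at 0.16 (adjusted p = 0.749). The co-receptor Hjv (0.08), the protease Tmprss6 that cleaves it (-0.02) and Id1 (0.08) differed by less than their standard errors, and these 3 were picked for their roles after their values were seen.

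The interleukin-6 arm had lower means. Of 17 acute phase and STAT3 genes 16 were tested, with a median of -0.12 and 0 passing. In adapted livers 15 of the 16 lay below control on average, as did 6386 of all 13308 genes tested. At an unadjusted p under 0.05 in limma 2 were lower, against 3.51% of all genes tested. By line 5 were lower in shRNA 1 livers, against 3.32%, and 1 in shRNA 2 livers, against 3.46%. Between the lines 1 was higher and 2 lower in shRNA 1 livers, against 3.32% and 2.7%. The lowest value of the list was -2.93 in shRNA 1 and -0.63 in shRNA 2 livers. Apcs, serum amyloid P, was at -0.47 (adjusted p = 0.264 in limma), Itih3 at -0.19 (adjusted p = 0.494) and the lipopolysaccharide-binding protein Lbp at -0.32 (adjusted p = 0.649). Apcs also led in shRNA 1 livers at -0.76 (adjusted p = 0.0525), and the receptor subunit Il6ra led in shRNA 2 livers at -0.36 (adjusted p = 0.620). Saa2, an acute phase apolipoprotein, had the lowest value of the list, -1.78 with a standard error of 0.96, and is named after its value was seen. The mean of this list relative to the controls ran from -0.47 to -0.37 in shRNA 1 livers. In shRNA 2 livers it ran from -0.48 to 0.07, and in controls from -0.41 to 0.34. The groups overlapped, for shRNA 1 through control replicate 4 alone (-0.41), with the other controls at 0.10, 0.34 and -0.03. Hamp, which interleukin-6 induces, had a higher mean in the same adapted livers, and the part of the acute phase in the Hamp values was not tested.

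Of the 9 genes Scara5 had the most negative difference between adapted and control livers. It encodes a scavenger receptor that takes up ferritin. It was at 4.72, 4.55 and 4.55 in shRNA 1 livers and at 5.17, 5.09 and 4.73 in shRNA 2 livers, against 5.47, 5.30, 5.68 and 5.04 in controls. Below all 4 controls were 4 of the 6 adapted livers, all 3 of shRNA 1 and replicate 3 of shRNA 2; the other two lay above control replicate 4 only. The adapted mean differed from control by -0.57 (standard error 0.13, 95% interval -0.85 to -0.29). The adjusted p was 0.264 in limma, and over 18 alternatives it lay between 0.182 and 0.532. An exact two-sided permutation of the 6 and 4 livers gave p = 0.0190, where 0.0048 is the smallest possible.

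By line, Scara5 stood at -0.77 in shRNA 1 livers (standard error 0.15, adjusted p = 0.135 in limma, exact permutation p = 0.0571) and at -0.38 in shRNA 2 livers (standard error 0.15, adjusted p = 0.630, exact permutation p = 0.143), both against the same controls. The shRNA 1 livers did not overlap the controls, which was so for 8.9% of all genes tested. With array weights in limma, which lower the influence of noisier arrays, the shRNA 1 value was -0.81 and passed (adjusted p = 0.0463); over the 19 alternatives the adjusted p for shRNA 1 lay between 0.0463 and 0.542. The lines themselves differed by -0.39 (shRNA 1 minus shRNA 2, standard error 0.16, adjusted p = 0.784), with no overlap between them, as for 11.3% of genes. Scara5 is low on the array scale and was left untested when only genes above the 60th percentile were kept. In bulk liver, fewer cells of a type and less RNA per cell cannot be told apart. Markers of stellate cells and fibroblasts, 10 of 10 tested, had a median difference of 0.06, and their mean relative to the controls ran from 0.02 to 0.08 in shRNA 1 livers and from -0.04 to 0.22 in shRNA 2 livers, against -0.08 to 0.09 in controls. The mean of 10 hepatocyte markers ran from 0.07 to 0.14 in shRNA 1 and from -0.02 to 0.02 in shRNA 2 livers, against -0.08 to 0.04 in controls, so that shRNA 1 lay above every control and shRNA 2 within their range, and its part in the Scara5 value was not tested. The genes most like Scara5 over the 10 arrays were Selenbp2 (Pearson's r = 0.94), Tor1b (0.94) and C8b (0.92).

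**Figure D3:**
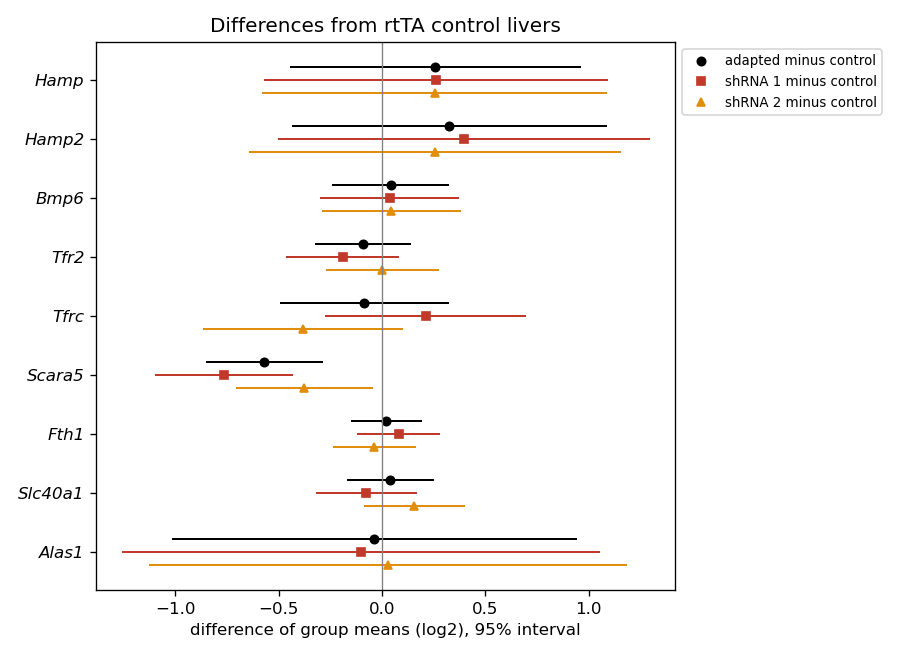
Differences of group means on the log2 scale with 95% intervals from limma, for adapted (circles), shRNA 1 (squares) and shRNA 2 livers (triangles), each minus the same 4 rtTA controls. The Scara5 intervals lie below 0 (-0.85 to -0.29 for adapted livers), before any adjustment for the number of genes; the intervals of the other 8 genes include 0.

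Tfrc encodes the main receptor for transferrin-bound iron, whose mRNA is stabilised when cells are short of iron. It was at 5.68, 6.91 and 6.02 in shRNA 1 livers and at 5.66, 5.69 and 5.48 in shRNA 2 livers, against 5.95, 5.91, 6.003 and 6.12 in controls. All 3 shRNA 2 livers lay below every control, which was so, in either direction, for 7.29% of all genes tested, and replicate 2 of shRNA 1 lay far above every other liver. In shRNA 2 livers the difference was -0.38 with a standard error of 0.22 (adjusted p = 0.745 in limma, exact permutation p = 0.0286, the smallest that 3 against 4 livers can give). In shRNA 1 livers it was 0.21 (adjusted p = 0.884), and -0.14 without shRNA 1 replicate 2. For adapted against control livers the difference was -0.09 (standard error 0.19, 95% interval -0.49 to 0.32, adjusted p = 0.941).

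The lines differed in Tfrc by 0.59 (shRNA 1 minus shRNA 2, standard error 0.23, adjusted p = 0.784 in limma, exact permutation p = 0.200), and by 0.24 without shRNA 1 replicate 2. Clock gene levels also differed between livers. The mean level of Arntl, Npas2, Clock and Cry1 minus that of Nr1d1, Nr1d2, Dbp, Tef, Per3 and Ciart, each gene centred, was -0.51, 0.98 and 0.92 in shRNA 1 livers and -1.05, 0.33 and -1.46 in shRNA 2 livers, against -0.99, 0.55, 0.65 and 0.59 in controls. The highest liver in this quantity, shRNA 1 replicate 2 (0.98), was also the highest for Tfrc (6.91). The lowest, shRNA 2 replicate 3 (-1.46), was also the lowest for Tfrc (5.48). The low control replicate 1 (-0.99) had Tfrc at 5.95, amid the other controls. In shRNA 2 replicates 1 and 2, far apart in this quantity (-1.05 and 0.33), Tfrc was at 5.66 and 5.69. The part of the clock quantity in the Tfrc values was not tested. With that quantity as a covariate, the Tfrc difference between the lines was 0.35 and that of shRNA 2 from control was -0.19. With the same covariate Hamp in shRNA 2 livers was at -0.18 and Hamp2 at -0.19 relative to control. The genes most like Tfrc over the 10 arrays were Wdfy2 (Pearson's r = 0.98), Slc39a10 (0.94) and Rasl11a (0.93). All 3 r values cover the high shRNA 1 liver.

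Storage and export varied least among the 9 genes. Fth1, the heavy chain of ferritin that oxidises iron for storage, was at 12.78, 12.76 and 12.71 in shRNA 1 livers and at 12.65, 12.51 and 12.72 in shRNA 2 livers, against 12.62, 12.65, 12.60 and 12.80 in controls. All 10 values lay within 0.29 of each other, and the adapted mean exceeded control by 0.02 (standard error 0.08, 95% interval -0.14 to 0.19, adjusted p = 0.968 in limma). By line Fth1 was at 0.08 in shRNA 1 and -0.04 in shRNA 2 livers, and shRNA 1 minus shRNA 2 was 0.12 (adjusted p = 0.940). Fth1 sits near the top of the array scale, where the highest value was 13.8, and has processed copies in the genome, and how far its cluster also reads them was not tested. Slc40a1, ferroportin, was at 9.76, 9.72 and 9.75 in shRNA 1 livers and at 10.08, 9.75 and 10.10 in shRNA 2 livers, against 9.99, 9.69, 9.74 and 9.87 in controls. Replicates 1 and 3 of shRNA 2 were the only livers above all controls. This gave a difference of 0.04 between adapted and control means (standard error 0.09, 95% interval -0.16 to 0.24, adjusted p = 0.945), with -0.08 for shRNA 1, 0.16 for shRNA 2 and -0.23 for shRNA 1 minus shRNA 2 (adjusted p = 0.851).

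Other genes that move, store and sense iron differed in both directions without any passing. Of 21 genes 17 were tested, with a median of 0.00, and 6 of the 17 had an unadjusted p under 0.05 in limma, 3 higher and 3 lower, against 8.37% of all genes. Fbxl5, which marks the iron regulatory protein IRP2 (Ireb2) for degradation when iron is ample, averaged 7.13 ± 0.01 in shRNA 1 and 6.93 ± 0.13 in shRNA 2 livers (SD, n = 3 each), against 6.79 ± 0.09 in controls (SD, n = 4), a difference of 0.24 for adapted livers (adjusted p = 0.433). Steap2, a metalloreductase, was at 0.29 (adjusted p = 0.433), and in shRNA 2 livers, where it led the list, at 0.44 (adjusted p = 0.435). Slc11a2, the divalent metal transporter DMT1, averaged 6.55 ± 0.13 in shRNA 1 and 6.41 ± 0.20 in shRNA 2 livers (SD, n = 3 each), against 6.77 ± 0.13 in controls (SD, n = 4), a difference of -0.29 (adjusted p = 0.481). Named after their values were seen, the others of the 6 were the mitochondrial importer Slc25a37 (0.32), the importer of free iron Slc39a14 (-0.23) and the reductase Steap4 (-0.39).

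Heme synthesis was read first at its rate-limiting enzyme in liver, Alas1. It was at 10.56, 8.90 and 8.83 in shRNA 1 livers and at 10.33, 8.71 and 9.65 in shRNA 2 livers, against 9.63, 8.42, 9.56 and 10.53 in controls. Each group held a liver above 10 and one below 9, and the groups overlapped throughout. The adapted value less the control value was -0.04 (standard error 0.45, 95% interval -1.01 to 0.94, adjusted p = 0.990 in limma, exact permutation p = 0.976), so that a difference of nearly 1 in either direction lies within the interval. By line Alas1 was at -0.10 in shRNA 1 and 0.03 in shRNA 2 livers, and shRNA 1 minus shRNA 2 was -0.13 (adjusted p = 0.991). With the clock covariate given for Tfrc these were 0.05, -0.51 and 0.56. The genes most like Alas1 over the 10 arrays were 4930412M03Rik (Pearson's r = 0.92), Igsf9b (0.90) and Tfcp2 (0.90). With Tfrc, Alas1 had r = -0.29 and rho = -0.25 (permutation adjusted p = 0.713 for r).

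Known regulators of Alas1 were set beside it. Of 8 genes, all tested, 0 passed, and the median was 0.04. At an unadjusted p under 0.05 in limma 1 was higher and 1 lower, against 4.86% and 3.51% of all genes tested. In shRNA 1 livers 1 was higher and 0 lower, against 4.57% and 3.32%. In shRNA 2 livers 1 was higher and 2 lower, against 4.14% and 3.46%. Ppargc1a, the coactivator PGC-1 alpha that induces Alas1 on fasting, was at 0.59 (adjusted p = 0.264 in limma). Against the same controls it was at 0.84 in shRNA 1 (adjusted p = 0.0894) and 0.34 in shRNA 2 livers (adjusted p = 0.636). Its shRNA 1 values (7.22 to 7.55) lay above every control (6.38 to 6.77). Such groups did not overlap for 8.9% of all genes tested. Nrf1 was at -0.19 (adjusted p = 0.574) and Ppargc1b at 0.20 (adjusted p = 0.770). Foxo1 led the shRNA 2 comparison at -0.28 (adjusted p = 0.630 there). Across the 10 arrays Alas1 and Ppargc1a had r = -0.05 and rho = -0.01 (permutation adjusted p = 0.896 for r).

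Beside Alas1, the genes of heme synthesis and its transport steps had 11 of 13 tested, with a median of -0.10 and 0 passing. In adapted livers 8 of the 11 lay below control on average, as did 6386 of all 13308 genes tested. At an unadjusted p under 0.05 in limma 1 was lower, against 3.51% of all genes tested. Ppox, the next to last enzyme, averaged 6.95 ± 0.09 in shRNA 1 and 6.998 ± 0.14 in shRNA 2 livers (SD, n = 3 each), against 7.22 ± 0.08 in controls (SD, n = 4), a difference of -0.25 (adjusted p = 0.461). Cpox, the enzyme before it, was at -0.23 (adjusted p = 0.619), with -0.40 in shRNA 1 livers (adjusted p = 0.467). Fech, which inserts the iron, was at 0.16 (adjusted p = 0.688). The erythroid synthase Alas2 had no cluster of its own.

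Clearance of heme and hemoglobin had 11 of 11 genes tested and 0 passing, with a median of -0.06. In adapted livers 8 of the 11 lay below control on average, as did 6386 of all 13308 genes tested. Values ran from -0.23, for haptoglobin (Hp, named after its value was seen), to 0.49. At an unadjusted p under 0.05 in limma 3 were higher and 1 lower, against 4.86% and 3.51% of all genes tested. In shRNA 1 livers 2 were higher and 3 lower, against 4.57% and 3.32%. In shRNA 2 livers 0 were higher or lower, against 4.14% and 3.46%. The 3 genes named next by rule were the 3 above control. Cd163, the macrophage receptor for hemoglobin bound to haptoglobin, averaged 6.95 ± 0.18 in shRNA 1 and 6.75 ± 0.41 in shRNA 2 livers (SD, n = 3 each), against 6.36 ± 0.27 in controls (SD, n = 4), a difference of 0.49 (adjusted p = 0.438). Blvrb, a biliverdin reductase, was at 0.34 (adjusted p = 0.432), with 0.50 in shRNA 1 livers (adjusted p = 0.268), and the heme transporter Slc48a1 was at 0.24 (adjusted p = 0.568). Hmox1, the heme oxygenase, was at -0.06 and is named for its role after its value was seen. Markers of Kupffer cells and macrophages, 10 of 10 tested, had a median difference of 0.12. Of these, 7 of 10 lay above control, as did 6922 of all 13308 genes tested. Their mean relative to the controls ran from -0.06 to 0.15 in shRNA 1 and from -0.003 to 0.32 in shRNA 2 livers, against -0.11 to 0.19 in controls. The part of these markers in the Cd163 value was not tested.

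Assembly of iron-sulfur clusters, the other large use of mitochondrial iron, showed the smallest differences. Of 18 genes 14 were tested and 0 passed in limma, with a median of -0.01 and a range of -0.08 to 0.17. In that comparison an unadjusted p under 0.05 in limma was reached by 0 of the 14, against 8.37% of all genes tested. The range was -0.12 to 0.18 in shRNA 1 and -0.23 to 0.15 in shRNA 2 livers. Between the lines 1 of the 14 had such a p, Ciapin1, higher in shRNA 1 by 0.28, against 6.02% of genes. Isca2 (0.17, adjusted p = 0.618), the co-chaperone Hscb (0.12, adjusted p = 0.765) and the glutaredoxin Glrx5 (0.08, adjusted p = 0.830) headed the list, and Ciapin1 led the shRNA 2 comparison at -0.23 (adjusted p = 0.713).

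**Figure D4:**
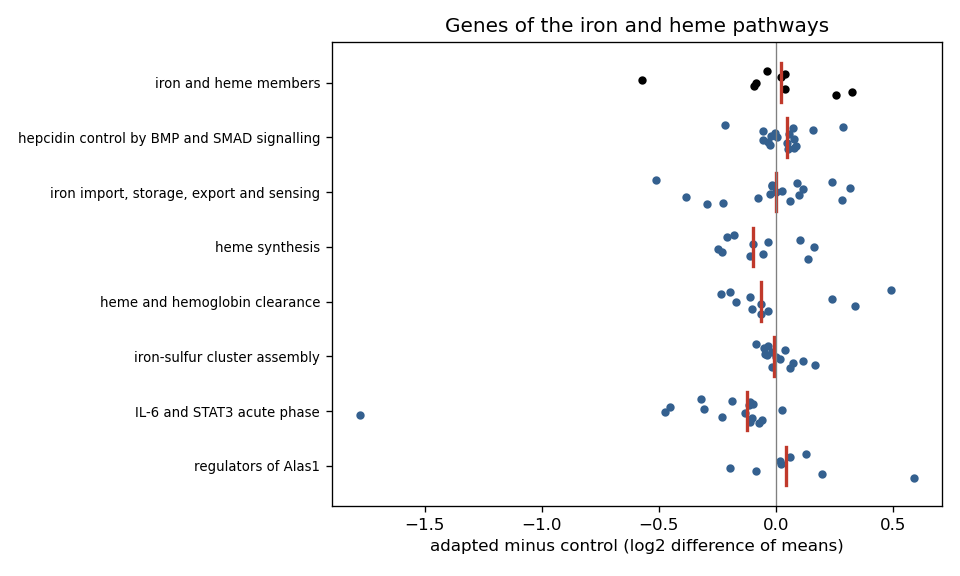
Each point is a tested gene and its difference of means (log2), adapted minus control livers, with genes grouped by pathway and the red bar at the list median. Medians lie between -0.12 for the acute phase list and 0.05 for hepcidin control; the lowest point is Saa2 (-1.78), and none of these genes passed an adjusted p of 0.05.

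The 9 genes differed most in how far livers of the same group stood apart. The SD within groups, pooled over the 3 groups, was 0.88 for Alas1, 0.68 for Hamp2 and 0.63 for Hamp, larger than for 99.8%, 99.6% and 99.5% of the genes tested, whose median was 0.16. Tfrc had 0.35, more than 96.0% of genes. Bmp6 and Scara5 had 0.22 each, more than 78.2% and 77.3% of genes. Tfr2 had 0.17, more than 53.2%, and Slc40a1 0.14, more than 36.4%. Fth1 had 0.09, more than 8.29% of genes. In shRNA 1, shRNA 2 and control livers the SDs were 0.98, 0.81 and 0.86 for Alas1 and 0.53, 0.53 and 0.74 for Hamp, so both were wide in every group. For Hamp2 they were 0.38, 1.17 and 0.27, widest in shRNA 2 livers, where replicate 3 stood at 11.01.

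**Figure D5:**
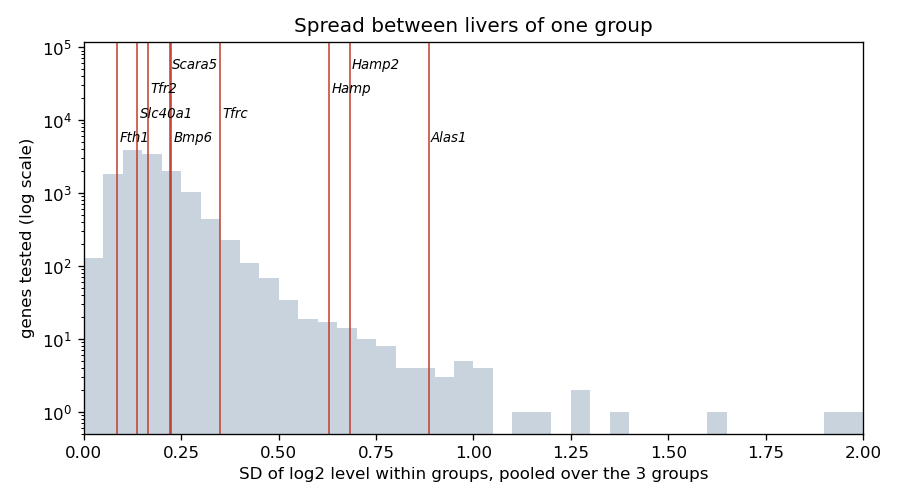
Histogram of the SD of log2 level within groups for 13308 genes (number of genes on a log scale), with red lines at the 9 iron and heme genes. Fth1 (0.09) lies on the left and Hamp (0.63), Hamp2 (0.68) and Alas1 (0.88) lie in the far right tail.

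Hepatocyte identity was plain on all arrays, with albumin (Alb) at 13.77 ± 0.02 in shRNA 1, 13.76 ± 0.06 in shRNA 2 (SD, n = 3 each) and 13.75 ± 0.03 in control livers (SD, n = 4). The 10 hepatocyte markers had a median difference of 0.06 and the 10 sinusoidal endothelial markers one of 0.07, with 0 passing in limma. At an unadjusted p under 0.05 in limma 1 and 2 of them were higher, against 4.86% of all genes tested. The means of the endothelial markers relative to the controls ran from 0.09 to 0.16 in shRNA 1 and from -0.02 to 0.12 in shRNA 2 livers, against -0.07 to 0.09 in controls, with shRNA 1 livers above every control; the part of cell content in the Bmp6 and hepcidin values was not tested. Of 13 erythroid markers 6 had a cluster of their own and only Slc4a1 lay above the level filter, at 0.02, so red cell content was not measured by this list. Of 6 cholangiocyte markers 3 were tested, with a median of -0.02 in adapted livers, -0.21 in shRNA 1 livers and 0.09 in shRNA 2 livers. Sox9, a progenitor and bile duct transcription factor, is named after its value was seen. It was at -0.46 in adapted (adjusted p = 0.303 in limma), -0.58 in shRNA 1 and -0.34 in shRNA 2 livers. In adapted livers it was the 1 of these 3 markers that was lower at an unadjusted p under 0.05 in limma, against 3.51% of all genes tested. The mean of the 3 relative to the controls ran from -0.32 to -0.055 in shRNA 1 and from -0.17 to 0.06 in shRNA 2 livers, against -0.10 to 0.17 in controls, and its part in the Scara5 values was not tested.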

How the data were processed

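Liver RNA from 10 samples was hybridised to whole-transcript Affymetrix mouse arrays, 1 colour, 1 array a sample. The deposited values are log2 levels per transcript cluster, made with Affymetrix Expression Console per the submitters' processing notes; for the version, background correction, normalization and build the sources used here give nothing, and any effect of them carries into these results. The platform annotation gave 1 symbol to 23521 of 41345 clusters. For each of 22180 genes the highest-mean cluster was kept, and 13308 genes above the 40th percentile of mean level were tested. Gene names and promoter sequences came from RefSeq tables of GRCm38.p6.

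Groups follow the sample titles. One limma 3.58.1 fit (R 4.3.3) over 10 arrays gave all comparisons, two-sided, with Benjamini-Hochberg adjustment over 13308 genes. Adapted is the mean of both shRNA groups. Permutation tests enumerated every split of the livers (for relations, 100000 resamples). The fit was tested on simulated data of adapted against control, in 5 runs of 13308 genes. A small random set of genes was shifted equally in both lines, with independent normal scatter at each gene's own SD within groups. The fit recovered 59.2% of those shifted by 0.5 and 95.8% of those shifted by 1 on the log2 scale. These shares depend on how many genes were shifted and average over genes. They do not give the power for single genes such as Hamp, Hamp2 and Alas1, whose SDs lay far above the median.

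The 10 genes, the 7 pathway lists and the 6 marker lists were chosen with earlier results of these data known. Named by rule were all 10 genes, Sod2, the 3 genes of each pathway list whose moderated statistic was farthest from 0 in adapted against control, the leading gene of each line, and the 3 genes most like Hamp, Tfrc, Alas1 and Scara5. A planned relation of Hamp with Saa1 was left out, since Saa1 had no cluster of its own. Alternatives covered normalization, level filter, clusters per gene, replicate block, array weights, prior variance, groups in the fit, a clock covariate, threshold and each array left out. Deviations of arrays with the same replicate number from their group means had correlations from -0.25 to 0.27. Arrays with different numbers were not compared in this way, so the check cannot exclude pairing. The numbers were not treated as pairs in the main fit, and the replicate block was an alternative.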

Additional observations from a re-analysis of the deposited data

How the results depend on the processing

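The number of arrays limits every result, and most differences of the 9 genes lie within their standard error, so their sign is not settled. Scara5 kept its sign under every alternative that tested it; array weights in limma turned its shRNA 1 value into the only call on any of the 9 genes (1 call against 0). With arrays left out in turn, ranges that crossed 0 were, for adapted minus control, -0.024 to 0.48 for Hamp, -0.0095 to 0.53 for Hamp2, -0.26 to 0.046 for Tfrc, -0.0020 to 0.066 for Fth1, -0.0040 to 0.10 for Slc40a1, -0.41 to 0.29 for Alas1 and -0.046 to 0.14 for Bmp6. For shRNA 1 minus control they were -0.020 to 0.57 for Hamp, -0.14 to 0.47 for Tfrc, -0.67 to 0.23 for Alas1 and -0.031 to 0.087 for Bmp6. For shRNA 2 minus control they were -0.053 to 0.47 for Hamp, -0.42 to 0.67 for Hamp2, -0.35 to 0.45 for Alas1, -0.13 to 0.24 for Bmp6, -0.084 to 0.022 for Fth1 and -0.092 to 0.066 for Tfr2. For shRNA 1 minus shRNA 2 they were -0.19 to 0.31 for Hamp, -0.27 to 0.81 for Hamp2, -0.70 to 0.25 for Alas1 and -0.20 to 0.17 for Bmp6. Quantile normalization reversed Fth1 (-0.015) and Slc40a1 (-0.00099) for adapted and Alas1 (-0.0019) and Tfr2 (-0.054) for shRNA 2 livers. The clock covariate reversed Slc40a1 (-0.0017) for adapted, Alas1 (0.051) for shRNA 1, Hamp (-0.18), Hamp2 (-0.19), Alas1 (-0.51) and Tfr2 (-0.028) for shRNA 2 livers, and Alas1 (0.56) and Bmp6 (0.0099) between the lines. Array weights reversed Alas1 (0.11) for adapted, Bmp6 (-0.036) and Tfr2 (-0.0037) for shRNA 2 livers and Bmp6 (0.099) between the lines. The replicate number as a block, a fit to which control replicate 4, with no partner, adds nothing, reversed Alas1 for adapted (0.29) and shRNA 1 livers (0.23) and Fth1 (0.0075) and Tfr2 (-0.087) for shRNA 2 livers, and kept the other signs of the 9 genes. The relation of Hamp with Bmp6 (-0.063) and Smad7 (-0.42) reversed without 2 arrays, and those of Hamp with Id1 (-0.0027) and Alas1 with Ppargc1a (0.0135) on deviations from the group means. The cause of these changes was not tested.

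Counts over all genes moved as well. Adapted against control had 1 call; this became 6 when the prior variance followed intensity and was robust, and 2 at an adjusted p of 0.10, and 0 with the 60th percentile filter, and it ranged from 1 to 3 with arrays left out (3 without control replicate 1, 2 without control replicate 4). For shRNA 1 the 0 calls (1050 at an unadjusted p under 0.05 in limma) became 8 with quantile normalization, 15 with the 60th percentile filter, 7 with the mean of a gene's clusters, 19 with array weights, 30 with that prior, 3 with the clock covariate and 20 at 0.10, and ranged from 0 to 11 with arrays left out (11 without shRNA 2 replicate 3, 9 when control replicate 4 was dropped, 2 on dropping control replicate 1, and 1 without shRNA 2 replicate 2). For shRNA 2 the 1 call became 0 with the 60th percentile filter and ranged from 1 to 3 (3 without control replicate 1, 2 without control replicate 4). For shRNA 1 against shRNA 2 the 2 calls became 1 with quantile normalization, the 60th percentile filter or the clock covariate, 4 with the replicate block, 6 with array weights, 7 with that prior and 8 at 0.10, and ranged from 1 to 4 (4 without control replicate 4). A fit with only the groups compared is the main fit itself for adapted against control.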
